A study of Mus musculus with 6 samples.

Results

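The 10 genes described here carry out the class I route of antigen presentation: the class I heavy chains H2-K1 and H2-D1, the light chain B2m, the peptide transporter subunits Tap1 and Tap2, the loading factor Tapbp, the immunoproteasome subunits Psmb8, Psmb9 and Psmb10, and the transactivator Nlrc5. They were chosen by name, as a set of interferon-responsive genes, from 20325 genes listed in the files, and all 10 were listed. The question was whether they followed the antiviral genes after transfection with siRNA. In outline, 2 of the 7 members with enough reads to test, B2m and Tapbp, were called higher with control siRNA than in untransfected cells by edgeR. Of all genes tested, 1.38% were. The larger part of the B2m and Tapbp differences came from the line pre2-2, both calls depended on single libraries of that line, and DESeq2 called neither gene. In pre3, control siRNA and untransfected cells were compared in log2(CPM + 1). The median difference was 0.21 over those 7 genes and 0.99 over 37 antiviral genes. The difference between the lists was not tested, and both lists were chosen with earlier results of these data known.

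Class I molecules display peptides of the cell's own proteins to cytotoxic T cells. Proteasomes cut proteins into peptides, the Tap1 and Tap2 transporter moves them into the endoplasmic reticulum, and tapasin, the product of Tapbp, holds an empty class I molecule next to the transporter until a peptide binds. Interferon replaces the catalytic subunits of the standard proteasome (Psmb5, Psmb6 and Psmb7) by the immunoproteasome subunits Psmb8, Psmb9 and Psmb10, and it raises the class I genes through factors that include Irf1 and Nlrc5. Pluripotent stem cells are known for low class I display, and fibroblasts for a higher one.

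The libraries came from pre-iPSCs, partially reprogrammed cells that have not reached the pluripotent state, of 2 mouse lines, pre3 and pre2-2, derived from OG2 embryonic fibroblasts of mixed 129SVJ, C57B6 and CBA background. OG2 mice carry a GFP reporter under the Pou5f1 promoter. Each line at passage 10 received siTet1 (an siRNA that targets Tet1, the enzyme that begins the removal of DNA methylation by oxidation), a control siRNA, or no transfection. All 3 groups were kept in a stem cell medium that contained LIF, with vitamin C at 50 µg/ml added later, so no library shows the cells without vitamin C. The time from transfection to RNA was 48 h in both accounts of the labels, which differ on whether vitamin C was present for 36 h or for the last 32 h. There was 1 library per line and treatment, hence 2 per treatment. Nothing in the labels says that the libraries of a line were grown separately, so the p-values measure the spread between these libraries. The cell type label reads embryonic fibroblasts, although the series text calls the cells pre-iPSCs.

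The 6 libraries held 1868640 to 2582803 expected counts and 13483 to 14113 genes with a count, so a floor of 3 counts stood at 1.16 to 1.59 CPM (the share of a library's counts on the usual CPM scale, with TMM scaling). The targeted gene Tet1 was at 158, 249 and 204 CPM with siTet1, with control siRNA and in untransfected cells of pre3, and at 153, 245 and 249 CPM in pre2-2. It was 0.67 lower on the log2 scale with siTet1 than with control siRNA (edgeR, SE 0.13, adjusted p = 0.00432). Pou5f1 was abundant in every library (5767 to 6589 CPM in pre3, 1037 to 1203 CPM in pre2-2), whereas Nanog, a gene of fully pluripotent cells, stayed between 0 and 3.53 CPM. The defining immune markers Ptprc, Csf1r, Tyrobp, Cd3e and Cd79a were at or below 3.87 CPM. The 11 immune markers listed in the files summed to 170 to 328 CPM, of which Laptm5 alone gave 160 to 310 CPM, with Lyz2 and Cd68 above the floor in every library, and the sum was not highest in the libraries with the highest class I levels.

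The sequence upstream of the class I genes shows which of them carry letters that interferon-induced factors are known to bind. Windows of 250 bases ending at the start site were found in the RefSeq tables (GRCm38.p6) for 8 of the 10 members, Tap2 and Nlrc5 having no entry. Those shown are the windows of the genes that were high together in transfected pre2-2 cells (B2m, H2-D1, H2-K1, of which the table holds 2 windows and the first is shown, and Tapbp) and the 225 bases that lie between the divergent starts of Psmb9 and Tap1. The reference is the C57BL/6J strain, while the reads were counted on mm9 and the cells were of mixed strain. Capitals mark the matches found on either strand.
B2m (chr2:122147437-122147686, plus strand): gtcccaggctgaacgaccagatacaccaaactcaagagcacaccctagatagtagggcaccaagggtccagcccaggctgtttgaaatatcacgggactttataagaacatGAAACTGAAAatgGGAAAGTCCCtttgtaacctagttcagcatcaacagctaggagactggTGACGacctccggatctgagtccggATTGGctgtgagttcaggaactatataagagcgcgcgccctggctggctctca
H2-D1 (chr17:35262844-35263093, plus strand): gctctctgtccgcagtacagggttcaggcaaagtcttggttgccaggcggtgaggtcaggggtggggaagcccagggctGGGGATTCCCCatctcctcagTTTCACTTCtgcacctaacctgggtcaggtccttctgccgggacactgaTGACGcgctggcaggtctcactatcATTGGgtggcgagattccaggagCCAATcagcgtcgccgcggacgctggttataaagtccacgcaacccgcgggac
H2-K1 (chr17:34000348-34000597, minus strand): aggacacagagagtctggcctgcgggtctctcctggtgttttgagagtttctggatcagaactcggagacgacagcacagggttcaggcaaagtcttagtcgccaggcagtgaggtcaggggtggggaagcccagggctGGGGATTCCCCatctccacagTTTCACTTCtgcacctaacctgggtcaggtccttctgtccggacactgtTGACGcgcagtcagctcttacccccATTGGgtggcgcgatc
Tapbp (chr17:33919228-33919477, plus strand): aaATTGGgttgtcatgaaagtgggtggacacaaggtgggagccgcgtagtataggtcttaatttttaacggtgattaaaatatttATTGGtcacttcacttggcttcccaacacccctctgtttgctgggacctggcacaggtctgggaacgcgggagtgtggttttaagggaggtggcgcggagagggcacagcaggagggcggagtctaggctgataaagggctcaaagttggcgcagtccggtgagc
Psmb9 to Tap1 (chr17:34187331-34187555, plus strand): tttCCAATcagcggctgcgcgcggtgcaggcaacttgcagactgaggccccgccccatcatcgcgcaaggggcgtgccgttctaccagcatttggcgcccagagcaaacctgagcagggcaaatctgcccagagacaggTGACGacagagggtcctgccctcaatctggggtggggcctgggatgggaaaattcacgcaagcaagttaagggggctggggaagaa

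H2-K1 and H2-D1 shared the same run of elements in the same order: an NF-kappaB consensus, a TTTCACTTC match to the pair of IRF half-sites GAANNGAAA on the opposite strand, the CRE half-site TGACG, and a CCAAT box read on the opposite strand. B2m held the interferon-stimulated response element core GAAANNGAAA as GAAACTGAAA, 139 to 130 bases before its start site, next to an NF-kappaB consensus. Among all 32851 windows of the same length, 2.98% held GAAANNGAAA, 6.31% held GAANNGAAA and 7.25% held the NF-kappaB consensus, on either strand. The CRE half-site was in 5 of the 8 member windows, against 17.8% of all windows, and the CCAAT box in 6 of 8, against 33.9%. The Psmb9 and Tap1 windows overlap, so their CRE half-site and CCAAT box are the same bases counted for each gene. The interferon-gamma element TTCNNNGAA was in the Psmb8 window alone among the members and in 7.02% of all windows. No GAAANNGAAA, GAANNGAAA or TTCNNNGAA was found in the Tapbp, Tap1 or Psmb9 windows, which says only that these letters are not in those 250 bases. Psmb9, Tap1, Psmb8 and Tap2 are neighbouring protein-coding genes on chromosome 17, H2-K1, H2-D1 and Tapbp lie on the same chromosome, B2m is on chromosome 2, and Psmb10 and Nlrc5 are on chromosome 8.

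The light chain and the tapasin gene rose with control siRNA against untransfected cells. B2m, whose protein every class I heavy chain needs to reach the surface, was at 68.8, 76.4 and 56.2 CPM with siTet1, with control siRNA and in untransfected cells of pre3, and at 161, 249 and 65.8 CPM in pre2-2. Both transfected libraries of each line stood above its untransfected library, by a wide margin in pre2-2 only. Over both lines B2m was 1.31 higher on the log2 scale with control siRNA than in untransfected cells (SE 0.21, edgeR adjusted p = 0.000333). Tapbp was at 34.4, 35.5 and 29.6 CPM in pre3 and at 78.8, 98.2 and 22.8 CPM in pre2-2, in the same order of treatments. It had the highest ratio of control siRNA to untransfected of the 7 members tested in pre2-2, and in pre3 its 3 libraries lay close together. Its log2 fold change over both lines was also 1.31 (SE 0.27, edgeR adjusted p = 0.00536). Of all 11048 genes tested, 1.38% were called higher in this comparison.

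**Figure D1:**
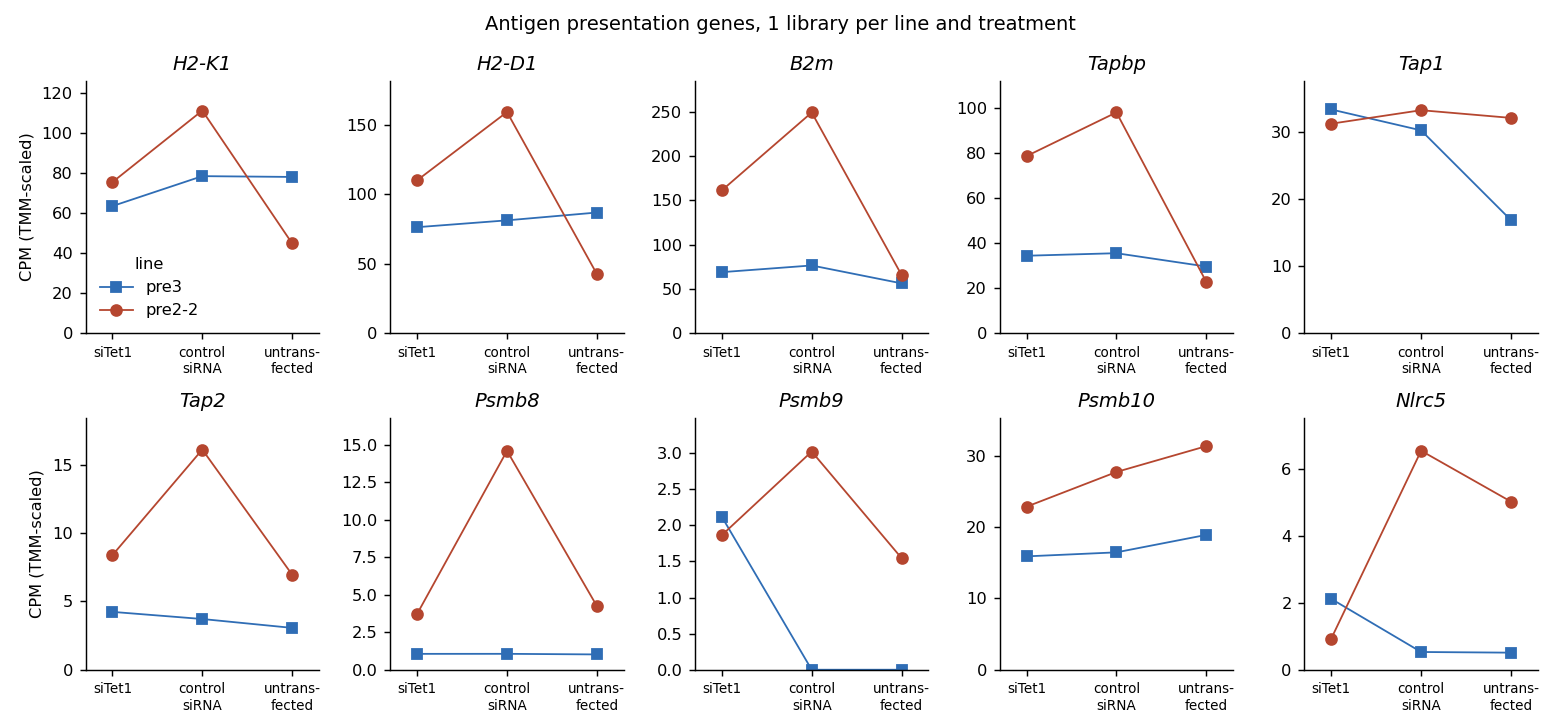
CPM of each of the 10 genes by treatment (siTet1, control siRNA, untransfected), with 1 library per point, squares for pre3 and circles for pre2-2; the lines join libraries of a cell line and the vertical scale differs between panels. H2-K1, H2-D1, B2m, Tapbp, Tap2 and Psmb8 peak in the control siRNA library of pre2-2, whereas Tap1 is low in the untransfected pre3 library and Psmb10 is highest in the untransfected library of each line.

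The heavy chains, which hold the peptide, were high in transfected pre2-2 cells and level in pre3. H2-D1 was at 76.3, 81.2 and 86.8 CPM with siTet1, with control siRNA and in untransfected cells of pre3, and at 110, 159 and 42.5 CPM in pre2-2. H2-K1 was at 63.5, 78.5 and 78.1 CPM in pre3 and at 75.5, 111 and 44.9 CPM in pre2-2. In untransfected cells the heavy chains were thus higher in pre3 than in pre2-2, and with control siRNA the order of the lines was the reverse. Neither was called with control siRNA against untransfected cells: the log2 fold change was 0.90 for H2-D1 (SE 0.25, edgeR adjusted p = 0.0824) and 0.66 for H2-K1 (SE 0.20, edgeR adjusted p = 0.144). These calls depended on the fit: from the 4 libraries compared, with line as replicate block, both were called (edgeR adjusted p = 4.39e-06 for H2-D1 and 0.00616 for H2-K1), as they were with library totals or without the filter, while without either the untransfected or the control siRNA library of pre2-2 neither was. Class I genes share sequence, and RSEM divides reads that match several of them: 12.8% of the 50-base words of H2-D1 and 9.63% of those of H2-K1 occur in other genes. The sum of 15 class I genes was 216, 256 and 255 CPM in pre3 and 259, 375 and 173 CPM in pre2-2, in the same order, which is the same arrangement as for the heavy chains alone. The sum was 0.56 higher on the log2 scale with control siRNA than in untransfected cells and was not called (edgeR adjusted p = 0.104).

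The transporter subunits did not move together. Tap1 was at 33.4, 30.2 and 16.9 CPM with siTet1, with control siRNA and in untransfected cells of pre3, and at 31.2, 33.3 and 32.1 CPM in pre2-2. Only the untransfected pre3 library was low, which is the opposite arrangement to that of the heavy chains. Tap2 had 8, 7 and 6 counts in pre3 and 18, 32 and 18 counts in pre2-2. Its control siRNA library in pre2-2 stood alone, and in pre3 it lay within a few counts of the detection floor. Neither gene was called with control siRNA against untransfected cells (edgeR: Tap1 0.36, SE 0.24, adjusted p = 0.739; Tap2 0.95, SE 0.46, adjusted p = 0.542).

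The immunoproteasome subunits were low. Psmb8, the counterpart of Psmb5, had 2, 2 and 2 counts with siTet1, with control siRNA and in untransfected cells of pre3, and 8, 29 and 11 counts in pre2-2. Psmb9, the counterpart of Psmb6, had 4, 0 and 0 counts in pre3 and 4, 6 and 4 counts in pre2-2. Psmb9 therefore showed no difference that could be detected at this depth, and a count of 0 allowed up to 1.59 CPM in the control siRNA library of pre3. Psmb10, the counterpart of Psmb7, was at 15.9, 16.4 and 18.9 CPM in pre3 and at 22.8, 27.7 and 31.3 CPM in pre2-2. Its transfected libraries lay below the untransfected one in each line. It was not called (log2 fold change of control siRNA against untransfected -0.19, SE 0.24, edgeR adjusted p = 0.906; of siTet1 against untransfected -0.37, SE 0.24, adjusted p = 0.424). Nlrc5, the transactivator of the class I genes, had 4, 1 and 1 counts in pre3 and 2, 13 and 13 counts in pre2-2. Scaled for library size, the ratio of control siRNA over untransfected in pre2-2 had an exact 95% counting interval of 0.556 to 3.05, so neither a rise nor a fall could be detected at this depth. Psmb8, Psmb9 and Nlrc5 did not pass the filter on low counts and were not tested with the others.

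Ratios between libraries of a line put a size on these differences, with exact 95% intervals that cover counting error only and compare those libraries, not the conditions. For control siRNA over untransfected, B2m stood at 1.36 in pre3 (1.05 to 1.76) and 3.79 in pre2-2 (3.18 to 4.54). H2-D1 stood at 0.935 in pre3 (0.747 to 1.17) and 3.74 in pre2-2 (3.00 to 4.69), and Tapbp at 1.20 in pre3 (0.832 to 1.74) and 4.31 in pre2-2 (3.20 to 5.86). H2-K1 stood at 1.01 in pre3 (0.796 to 1.27) and 2.48 in pre2-2 (1.97 to 3.13). For B2m, H2-D1, Tapbp and H2-K1 the intervals of the lines did not overlap. The share of all genes for which this holds was not counted, and the test of line by transfection below called no member. Tap1 ran the other way, at 1.79 in pre3 (1.15 to 2.84) and 1.04 in pre2-2 (0.738 to 1.45). Psmb8 stood at 3.43 in pre2-2 (1.67 to 7.62), from 29 and 11 counts.

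The summed fibroblast markers, like the heavy chains, were higher in both transfected libraries of pre2-2 than in its untransfected library. The 10 fibroblast markers, among them the collagens Col1a1 and Col1a2, summed to 1045, 933 and 765 CPM with siTet1, with control siRNA and in untransfected cells of pre3, and to 2934, 3610 and 1468 CPM in pre2-2. The control siRNA sum was thus 1.22 times the untransfected sum in pre3 and 2.46 times it in pre2-2. In pre3 the sum was highest with siTet1, where H2-K1 and H2-D1 were lowest. In pre2-2, Col3a1, Pdgfra, Dcn and Lum were highest with siTet1 and the other markers with control siRNA. Col1a1 and Col1a2 gave 2045 and 1090 CPM of the control siRNA sum of pre2-2. Of the 8 markers tested, 4 were called higher with control siRNA than in untransfected cells (Col1a1, Col1a2, Thy1 and Postn). Of all genes tested, 1.38% were. Lum was at 0 in 3 of the 6 libraries and reached 2.33 CPM. Their part in the difference of B2m, Tapbp and the heavy chains was not tested, and in such bulk libraries fewer cells of a type and less RNA per cell cannot be told apart.

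The calls of B2m and Tapbp rested on the pre2-2 libraries. Without the untransfected pre2-2 library, the log2 fold change was 0.60 for B2m and 0.36 for Tapbp, and both calls ended. Without the control siRNA library of pre2-2, it was 0.74 for B2m and 0.73 for Tapbp, and both calls ended. DESeq2 called neither.

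Antiviral genes were listed for comparison, with earlier results of these data known, so the choice of the list may favour their rise. The 5 antiviral genes named below, like others on the list, had fewer than 10 counts in each untransfected library, and Rtp4 was at 0 CPM in both. Such genes passed the filter only through transfected libraries, which favours a rise in the counts and medians of this list. With control siRNA against untransfected cells, 2 of 7 antigen presentation genes and 25 of the 37 antiviral genes tested, of 44 listed, were called higher. Of all genes tested, 1.38% were. The log2 fold change was above 0 for 6 of the 7, 36 of the 37 and 5585 of all 11048 genes. The median log2 fold change was 0.90 for the antigen presentation genes, 1.27 for the antiviral genes and 0.00 for all genes tested. The antiviral genes named are the 5 with the largest change. Irf7, by which the interferon response amplifies itself, was at 3.71, 11.1 and 0 CPM with siTet1, with control siRNA and in untransfected cells of pre3, and at 16.8, 72.0 and 2.32 CPM in pre2-2. Usp18, which removes Isg15 from proteins and restrains the interferon receptor, was at 1.59, 4.78 and 0 CPM in pre3 and at 9.79, 42.3 and 0.774 CPM in pre2-2. Rtp4 was at 2.65, 3.18 and 0 CPM in pre3 and at 8.86, 32.2 and 0 CPM in pre2-2. Ifit1, which binds foreign RNA, was at 1.59, 1.06 and 0 CPM in pre3 and at 7.93, 54.4 and 1.16 CPM in pre2-2, and Ifi44 at 0.530, 1.59 and 1.02 CPM in pre3 and at 13.1, 27.2 and 0 CPM in pre2-2. The choice of these 5 genes by their rise favours a high control siRNA library, and in pre3 Ifit1 and Ifi44 lay at or below the floor of 3 counts.

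The medians of the lists lay farther apart in pre3 than in pre2-2, which was not tested. In pre3 the median difference of control siRNA minus untransfected, in log2(CPM + 1), was 0.21 over the 7 antigen presentation genes tested and 0.99 over the 37 antiviral genes. None of the 7 and 18 of the 37 reached a difference of 1, a change that 161 of all 11048 genes reached. Within pre2-2 the medians were 1.29 for antigen presentation and 1.45 for antiviral genes. There, 5 of the 7 (B2m, H2-K1, H2-D1, Tapbp and Tap2), 28 of the 37 and 494 of all genes reached 1. The difference between the lists was not tested, and the filter favours antiviral genes that are high after transfection.

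**Figure D2:**
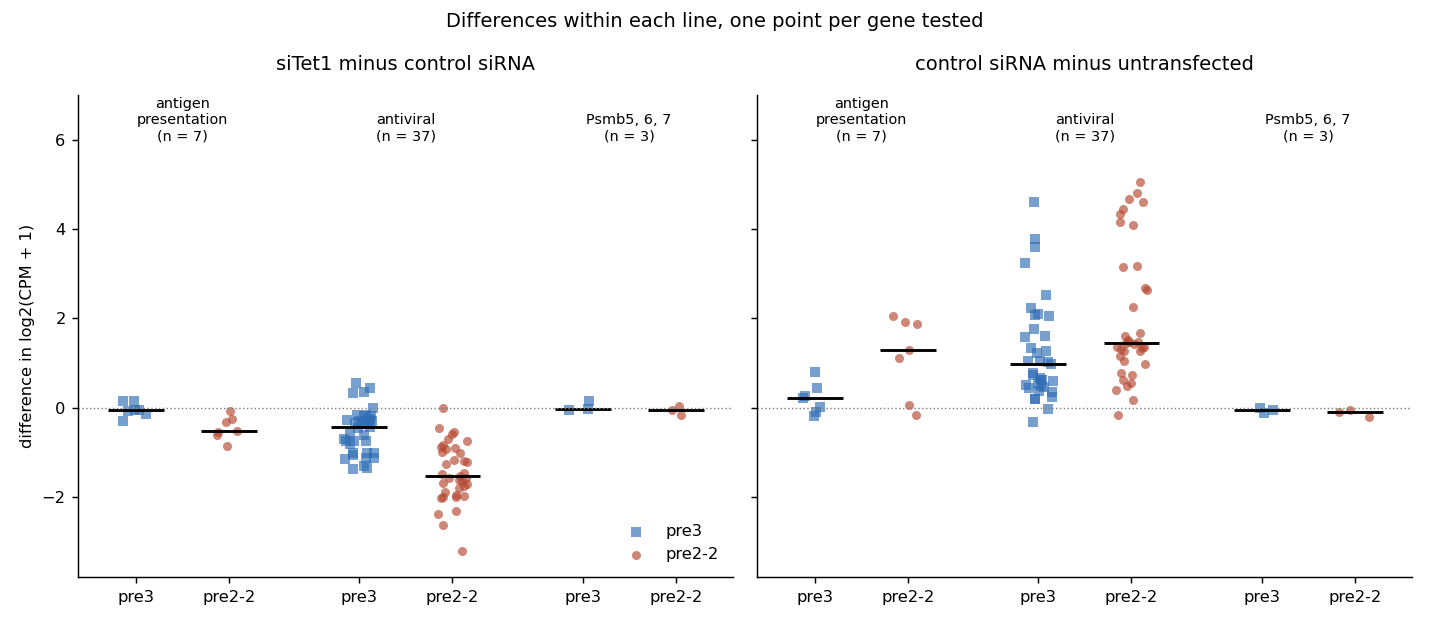
Differences within each line in log2(CPM + 1), 1 point per gene tested, for siTet1 minus control siRNA (left) and control siRNA minus untransfected (right); horizontal bars are medians, squares are pre3 and circles pre2-2. In pre3 the antigen presentation genes stay below 1 in the right panel (median 0.21) while the antiviral genes spread up to 4.61; Psmb5, Psmb6 and Psmb7 lie near 0.

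With siTet1, no antigen presentation gene was called against control siRNA in the fit to all 6 libraries, and B2m and H2-K1 were called lower from the 4 libraries compared. Of the 7 tested, 0 were called (edgeR adjusted p under 0.05), against 1.58% of all genes in either direction. An unadjusted p under 0.05 was found for 2 with edgeR and with limma-voom and for 0 with DESeq2. With edgeR, 1195 of all 11048 genes had one. Neither limma-voom nor DESeq2 called a member. From the 4 libraries alone, with line as replicate block, B2m stood at -0.47 (edgeR adjusted p = 0.00204) and H2-K1 at -0.45 (adjusted p = 0.0244). That fit called more of all genes than the fit to all 6 libraries, with the counts given below, so the 1.58% does not apply to it. From all 6 libraries the log2 fold changes were -0.45 for B2m (edgeR adjusted p = 0.365), -0.45 for H2-K1 (0.408), -0.36 for H2-D1 (0.649), -0.22 for Tapbp (0.821) and -0.60 for Tap2 (0.695). Tap1 stood at 0.02 (edgeR adjusted p = 0.983) and Psmb10 at -0.18 (0.864). Of the antiviral genes, 20 of 37 fell with siTet1 against control siRNA, where 0.434% of all genes did, and the median was -0.36 for the antigen presentation genes and -1.15 for the antiviral genes. Both comparisons use the same control siRNA libraries, so their values stand side by side and are not independent.

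Within the lines, siTet1 lay near control siRNA in pre3 and below it in pre2-2. In pre3 the ratio of siTet1 over control siRNA was 0.901 for B2m (0.705 to 1.15), 0.809 for H2-K1 (0.631 to 1.04) and 0.939 for H2-D1 (0.743 to 1.19), intervals that include 1. In pre2-2 it was 0.647 for B2m (0.562 to 0.744), 0.678 for H2-K1 (0.550 to 0.835), 0.691 for H2-D1 (0.581 to 0.821) and 0.521 for Tap2 (0.275 to 0.956). Psmb8 had a lower ratio in pre2-2, 0.255 (0.101 to 0.572) from 8 and 29 counts, and so had Nlrc5, 0.142 (0.0156 to 0.629) from 2 and 13 counts. These intervals lie below 1 and cover counting error only. Tapbp, at 0.802 (0.649 to 0.991), lay just below 1. The intervals of the other pre2-2 ratios include 1, at 0.939 for Tap1 (0.659 to 1.34), 0.824 for Psmb10 (0.549 to 1.23) and 0.617 for Psmb9 (0.128 to 2.60). In pre3 Nlrc5 had a ratio of 3.99 (0.395 to 197), from 4 and 1 counts. Without the control siRNA library of pre2-2, the log2 fold changes of B2m, H2-D1, Tapbp and Tap2 were above 0, at 0.12, 0.32, 0.36 and 0.12, and none was called.

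Against untransfected cells, the siTet1 libraries kept a part of the difference. B2m was 0.86 higher on the log2 scale with siTet1 (SE 0.21, edgeR adjusted p = 0.0127) and Tapbp 1.09 higher (SE 0.27, edgeR adjusted p = 0.0133). Thus 2 of the 7 rose where 4.92% of all genes did. H2-D1 stood at 0.54 (edgeR adjusted p = 0.241), H2-K1 at 0.21 (0.646), Tap1 at 0.38 (0.405), Tap2 at 0.34 (0.764) and Psmb10 at -0.37 (0.424). In pre3 the median of siTet1 minus untransfected, in log2(CPM + 1), was 0.21 over the 7 genes and 0.63 over the 37 antiviral genes. In pre2-2 these medians were 0.74 and 0.35, so the order of the lists was the reverse; this difference was not tested. Tap1 in pre3 had a ratio of siTet1 over untransfected of 1.98 (1.28 to 3.11). The calls of B2m and Tapbp ended without the untransfected pre2-2 library (0.13 and 0.12), without the siTet1 library of pre2-2 (0.76 and 0.79) and with DESeq2. The sum of the fibroblast markers was 1.36 times as high with siTet1 as in untransfected cells of pre3 and 2.00 times in pre2-2. Of the 8 markers tested, 5 were called higher, where 4.92% of all genes were, and their part was not tested.

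The lines differed in level as well, by a line term that averages over the treatments. Across treatments, 4 of the 7 members were lower in pre3 than in pre2-2, where 15.8% of all genes were: B2m by a log2 fold change of -1.12 (SE 0.17, edgeR adjusted p = 9.75e-06), Tap2 of -1.46 (adjusted p = 0.00642), Tapbp of -0.89 (adjusted p = 0.00217) and Psmb10 of -0.67 (adjusted p = 0.0119). The heavy chains did not differ by the test, with -0.01 for H2-K1 (edgeR adjusted p = 0.971) and -0.23 for H2-D1 (adjusted p = 0.437). Neither did Tap1 (-0.29, edgeR adjusted p = 0.276). Tap2 and Psmb10 were lower in pre3 in each treatment. In untransfected cells, however, Tapbp was at 29.6 CPM in pre3 and 22.8 in pre2-2, and B2m at 56.2 and 65.8. H2-K1 was at 78.1 and 44.9 CPM in untransfected cells and at 78.5 and 111 CPM with control siRNA, so differences of opposite sign were averaged. Psmb8, below the filter, had at most 2 counts in a pre3 library and at least 8 in a pre2-2 library. Of the antiviral genes, 30 of 37 were lower in pre3, and of the fibroblast markers 7 of 8 were; the part of these cells was not tested. DESeq2 called none of the 4, with adjusted p of 0.0727 for B2m, and edgeR's calls of Tap2, Tapbp and Psmb10 ended without the control siRNA library of either line.

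Whether transfection acted differently on the lines was tested with the interaction of line and transfection, taking the siTet1 and control siRNA libraries of a line as its 2 transfected libraries. Of the 7 members, 0 were called by edgeR, DESeq2 or limma-voom; 5 had an unadjusted p under 0.05 with edgeR, 4 with DESeq2 and 5 with limma-voom. Of all 11048 genes, 1 was called by edgeR (0.00905%) and 603 had an unadjusted p under 0.05 with edgeR. The transfection difference was lower in pre3 than in pre2-2 by a log2 value of -1.80 for H2-D1 (SE 0.34, edgeR adjusted p = 0.679), -1.71 for Tapbp (adjusted p = 0.679), -1.27 for B2m (adjusted p = 0.884) and -1.19 for H2-K1 (adjusted p = 0.884). For Tap1 it was higher in pre3, by 0.91 (edgeR adjusted p = 0.884).

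The balance between subunits, compared per transcript length in TPM (the share of a library's transcripts), also set the lines apart. B2m stood at 162, 181 and 125 TPM with siTet1, with control siRNA and in untransfected cells of pre3, beside 166, 191 and 186 TPM for H2-K1 and H2-D1 together. In pre2-2 it stood at 402, 616 and 157 TPM, beside 233, 337 and 106 TPM. B2m was therefore below the heavy chains in each pre3 library (ratios of 0.977, 0.945 and 0.673) and above them in each pre2-2 library (1.73, 1.83 and 1.49). In each line the untransfected library had the lowest ratio. The heavy chain sum leaves out the other class I genes. Whether the mixed strain of the cells affected counts made on mm9 was not tested.

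The constitutive proteasome subunits were the bulk of each pair. Psmb8 made up 0.419, 0.464 and 0.442% of Psmb8 plus Psmb5 TPM with siTet1, with control siRNA and in untransfected cells of pre3, and 1.74, 6.18 and 1.62% in pre2-2. Only the control siRNA library of pre2-2 stood out. Psmb10 made up 5.20, 5.25 and 5.53% of Psmb10 plus Psmb7 in pre3 and 7.99, 8.54 and 9.25% in pre2-2, while Psmb9 reached at most 2.65% of its pair. Psmb5, Psmb6 and Psmb7 themselves were not called in any of the treatment comparisons (0 of 3 by edgeR, unadjusted p under 0.05 in 0 of 3), and their log2 fold changes with control siRNA against untransfected cells were -0.13, -0.08 and -0.08.

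**Figure D3:**
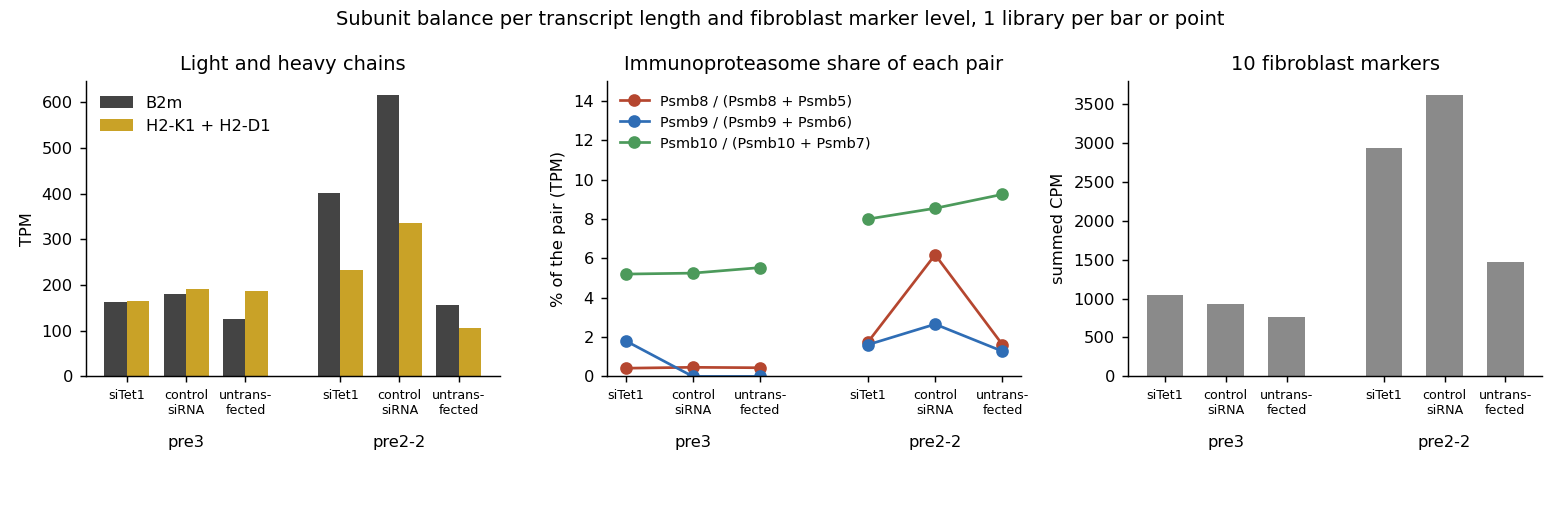
Left, TPM of B2m and of H2-K1 plus H2-D1 in each library; middle, percent that each immunoproteasome subunit makes up of its pair with the constitutive subunit; right, summed CPM of 10 fibroblast markers. B2m exceeds the heavy chains in the 3 pre2-2 libraries and not in the 3 pre3 libraries, Psmb8 reaches 6.18% only in the control siRNA library of pre2-2, and the fibroblast sum is highest there (3610 CPM).

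Other genes of the pathway were mostly not called. Of 12 further genes of peptide supply and loading, such as the chaperones Calr, Canx and Pdia3, the trimming peptidase Erap1 and the proteasome activators Psme1 and Psme2, all were tested and 0 were called by edgeR with control siRNA against untransfected cells (1 at an unadjusted p under 0.05) or with siTet1 against control siRNA (0 at an unadjusted p under 0.05). Their median log2 fold changes were 0.08 and -0.09. Of all 11048 genes, 1017 and 1195 had an unadjusted p under 0.05 with edgeR in these comparisons. The ratio of control siRNA over untransfected was 1.20 in pre3 (0.897 to 1.62) and 1.62 in pre2-2 (1.25 to 2.11) for Psme1, with exact 95% counting intervals. For Psme2 it was 1.01 in pre3, with an interval that includes 1, and 1.48 in pre2-2 (1.17 to 1.88). Of 18 other class I and class I-like genes in the files, 5 passed the filter and 0 were called by edgeR in those comparisons, with an unadjusted p under 0.05 for 2 and 1 of them. H2-T23, a non-classical class I gene, was lower with siTet1 than in untransfected cells by a log2 fold change of -0.62 (SE 0.18, edgeR adjusted p = 0.0403), where 1.63% of all genes were lower. Other class I genes with few counts were chosen after their values were seen. H2-Q9 had 12, 17 and 5 counts with siTet1, with control siRNA and in untransfected cells of pre3, and 6, 7 and 0 counts in pre2-2 (log2 fold change of control siRNA against untransfected 2.38, SE 0.76, edgeR adjusted p = 0.159). H2-T10 had 0, 6 and 0 counts in pre3 and 3, 28 and 5 counts in pre2-2. H2-T22 had 28, 28 and 0 counts with siTet1, with control siRNA and in untransfected cells of pre3, and 14, 13 and 12 counts in pre2-2 (log2 fold change of control siRNA against untransfected 1.92, SE 0.64, edgeR adjusted p = 0.206). Others were lower in a control siRNA library than in the untransfected library of the line. H2-T9 had 0, 9 and 32 counts in pre3 and 10, 18 and 9 counts in pre2-2, in the same order of treatments. H2-Q7 had 6, 1 and 8 counts in pre3 and 1, 0 and 14 counts in pre2-2. How reads shared between class I genes were divided here was not tested. Of 8 MHC class II genes, 1 (H2-DMb1) passed the filter, and it was not called in a treatment comparison.

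Of the regulators of class I transcription, 1 is described here. Irf1, an interferon regulatory factor that acts on class I promoters, was named after its values were seen: it had 66, 47 and 43 counts in pre3 and 45, 63 and 192 counts in pre2-2, with siTet1, with control siRNA and in untransfected cells. Its highest library was thus the untransfected pre2-2 library, in which the heavy chains were lowest, and it was not called (log2 fold change of control siRNA against untransfected -0.74, SE 0.31, edgeR adjusted p = 0.406).

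The genes whose pattern over the 6 libraries lay closest to the median of the 7 tested members were Stk10, Ltbp2, Col7a1, Bgn and Runx2. The measure was the root mean square difference in log2(CPM + 1), centred within each line, and ran from 0.05 for Stk10 to 0.09 for Runx2. These 5 were the closest of all genes tested, so their nearness was fixed by the choice. The distance of the members from their own median ran from 0.14 for H2-K1 to 0.44 for Tap1 and 0.48 for Psmb10. Ltbp2, Col7a1 and Bgn encode extracellular matrix proteins and Runx2 a transcription factor of bone-forming cells. Bgn was at 166, 201 and 148 CPM with siTet1, with control siRNA and in untransfected cells of pre3, and at 649, 877 and 365 CPM in pre2-2, so it too peaked in the control siRNA library of pre2-2. None of the 5 is on the antiviral list, but that list holds only 37 of the 11048 genes tested, so their absence says little.

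**Figure D4:**
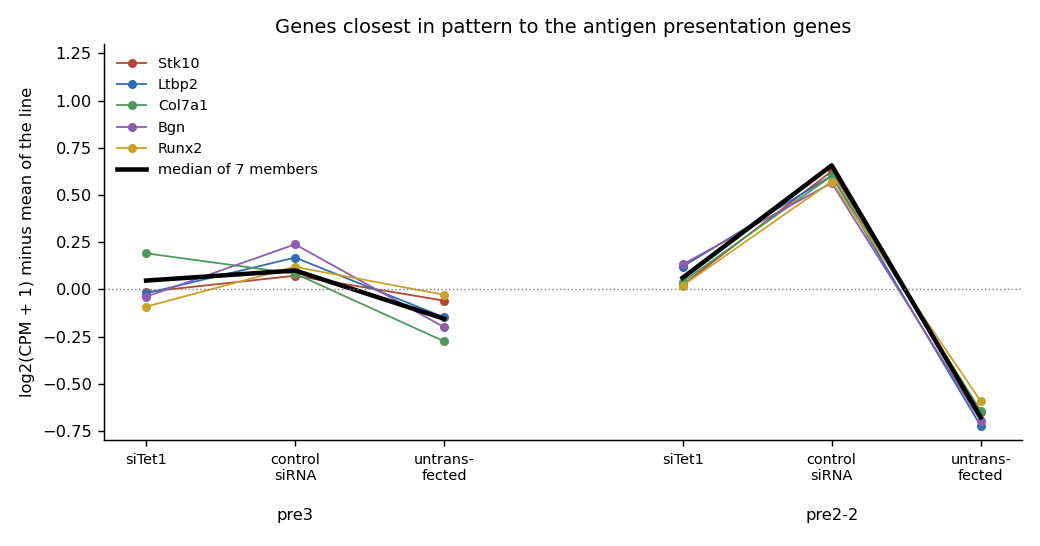
Log2(CPM + 1) minus the mean of the line for the 5 genes closest in pattern to the antigen presentation genes (thin lines, 1 library per point) and for the median of the 7 members tested (thick black line), with pre3 on the left and pre2-2 on the right. The median is at 0.05, 0.10 and -0.16 with siTet1, with control siRNA and in untransfected cells of pre3, and at 0.06, 0.66 and -0.68 in pre2-2.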

How the data were processed

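The deposited files gave, per gene symbol, an expected count (the estimated number of reads, not normalized) and a fraction (the estimated share of transcripts, which the authors' files hold as a sum of 1 per library, and which gives TPM on scaling). The authors made them with RSEM 1.1.21 on mm9, per the submitters' processing notes; the aligner settings, the read length and strandedness are not given in the sources used here. Between 18.7 and 21.4% of the expected counts per library were not whole (tolerance 0.005). A series table of TPM was not used here, as it repeats the fractions.

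After rounding, the expected counts went into edgeR 4.0.16 under R 4.3.3. Genes were kept by filterByExpr over the treatments (minimum count 10), leaving 11048, with TMM factors of 0.983 to 1.01. All 6 libraries entered a model of line plus treatment, tested by two-sided quasi-likelihood; p-values were adjusted by Benjamini-Hochberg across the 11048 genes and calls made at 0.05. The common dispersion was 0.00755, with 2 residual and 23.2 prior degrees of freedom. The interaction model held line, transfection and their product. SE was taken as the size of the fold change divided by the root of its F statistic. Within-line differences use a pseudocount of 1 CPM. An exact permutation test of 2 libraries against 2 cannot go below 0.333. The test was tried on simulated counts. Alternatives were RLE factors, library totals, no filter, DESeq2 1.42.0, limma-voom 3.58.1, no line term, 4 libraries only, each library left out, summed class I genes and other pseudocounts. The labels' replicate number is the line (1 for pre2-2, 2 for pre3), so libraries with the same number share a cell line.

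Members and lists were chosen with earlier results of these data known. All 10 members are named. Of other lists, genes called in either comparison with control siRNA may be named, with the 5 antiviral genes of largest change that moved the same way in both lines, and the 5 genes of closest pattern. H2-T23, H2-Q9, H2-T10, H2-T22, H2-T9, H2-Q7, H2-DMb1, Psme1, Psme2 and Irf1 fall outside this rule and were named after their values were seen. Some results on the regulator and marker lists are not reported here.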

Additional observations from a re-analysis of the deposited data

Results flagged for a closer look

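The H2-D1 difference between transfected and untransfected cells differed between the lines, by -1.80 (log2, pre3 minus pre2-2). It was flagged because the untransfected library lay above both transfected libraries in pre3 and below them in pre2-2. The interaction was tested and did not pass (edgeR, SE 0.34, unadjusted p = 0.000428, adjusted p = 0.679).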

How the results depend on the processing

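Calls were few enough to depend on the method and on single libraries. Members called with control siRNA against untransfected cells numbered 2, and 4 with library totals alone, without the filter or with only the 4 libraries compared and line as replicate block (B2m, Tapbp, H2-D1 and H2-K1); they numbered 0 with DESeq2 (2 at an unadjusted p under 0.05) and 0 without the line in the model (no replicate block). With siTet1 against control siRNA 0 were called, and 2 (B2m and H2-K1) from the 4 libraries with line as replicate block. With siTet1 against untransfected cells 2 were called, and 0 with DESeq2 or without the replicate block (0 at an unadjusted p under 0.05 in each). Between the lines 4 were called, and 0 with DESeq2 (3 at an unadjusted p under 0.05). Leaving out each library, these counts ran from 0 to 4, 0 to 3, 0 to 4 and 1 to 7 in that order, and the interaction stayed at 0 of 7 in all alternatives run.

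Over all genes, 164 were called with control siRNA against untransfected cells (259 without the filter, 32 with DESeq2, 25 to 732 leaving out a library), 175 with siTet1 against control siRNA (292, 24 and 34 to 632, and 611 from the 4 libraries), 724 with siTet1 against untransfected cells (87 with DESeq2, 172 to 1900 leaving out a library), 3335 between the lines (1429 and 2152 to 3631) and 1 for the interaction (5 with DESeq2, 0 with limma-voom, 0 to 4). Without the replicate block the 3 treatment counts were 0, with 84, 178 and 353 genes at an unadjusted p under 0.05. The cause was not tested.

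Of the single values, 18 changed sign, each when a library was left out. The ranges, in log2, were -0.84 to 0.12 for B2m, -0.87 to 0.32 for H2-D1, -0.27 to 0.34 for Tap1, -0.93 to 0.12 for Tap2 and -0.60 to 0.36 for Tapbp with siTet1 against control siRNA. They were -0.0196 to 0.91 for Tap1 with control siRNA against untransfected cells, and -0.37 to 0.80 for H2-K1, -0.32 to 1.45 for H2-D1 and -0.000401 to 0.93 for Tap1 with siTet1 against untransfected cells. Between the lines they were -0.38 to 0.29 for H2-K1 and -0.76 to 0.22 for H2-D1, and for the interaction -0.82 to 0.12 for Tap2 and -0.0343 to 0.24 for Psmb10. RLE factors and library totals moved the median of all genes by at most 0.0195, and other pseudocounts or TPM kept the sign of every median over the 7 members. Depth limits Psmb8, Psmb9, Nlrc5 and, in pre3, Tap2, which had at most 8 counts there.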
